A study of Caenorhabditis elegans with 2 samples.

Results

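Small nucleolar RNA (snoRNA) genes and the DNA just upstream of them were examined in chromatin immunoprecipitation followed by sequencing (ChIP-seq) of the transcription factor SOX-4 in Caenorhabditis elegans. All 346 genes of the snoRNA biotype were taken from the Ensembl gene models of WBcel235, out of 46890 annotated genes, and none was left out. Each gene was given the strongest listed region whose summit lay within 200 bp of it. The rule that chose the genes used no measured value, though it was set with earlier results of these data known. The worms were strain OP517, genotype unc-119(tm4063) III with the transgene wgIs517, which supplies SOX-4 carrying GFP and FLAG at its C terminus. Chromatin of whole late embryos of pooled sexes, 4 hours after bleaching of eggs, was pulled down with an antibody against GFP. There was 1 group with 2 biological replicates. The sources used here do not name the promoter that drives the transgene. No sample without the tag was analysed here, so signal owed to SOX-4 and signal that any pulldown would give cannot be told apart. Whole embryos were used, so the cells that gave each region are unknown.

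A snoRNA guides a protein complex to another RNA. Box C/D snoRNAs direct 2'-O-methylation by fibrillarin and box H/ACA snoRNAs direct pseudouridylation by dyskerin, mostly on ribosomal RNA. Some snoRNAs are cut out of the introns of host genes, and others are transcribed from promoters of their own. Transfer RNA genes, by contrast, are transcribed by RNA polymerase III through internal promoter elements called the A box and the B box, which transcription factor TFIIIC binds. SOX proteins contact DNA through an HMG box. The gene models give most snoRNA genes a sequence name only, so no target RNA is stated for the genes named below.

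Stretches from 100 bases before to 20 bases after the 5' end show the letters that the later results turn on. The first 9 are the 3 strongest genes of each kind of location on chromosomes II, IV and V, with C51F7.4 left out because it shares its region with C51F7.3, and the last 2, on II and X, hold the same letters with a weaker region. Capitals mark an A box form, TGGNNNA, followed by a B box form, GTTCNANNC, with starts 25 to 80 bases apart on the RNA's strand (N is any base). Where several B box forms fitted, only the last is marked, so an earlier one in C51F7.3 stays in lower case. Sequence is from the RefSeq copy of WBcel235 (build ce11), 5' to 3' on the RNA's strand.
W03C9.9 (chrII:11960798-11960917, plus strand): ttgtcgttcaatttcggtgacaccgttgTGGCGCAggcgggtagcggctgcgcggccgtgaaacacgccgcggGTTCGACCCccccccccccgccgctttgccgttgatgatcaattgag
T06C12.16 (chrV:15873907-15874026, minus strand): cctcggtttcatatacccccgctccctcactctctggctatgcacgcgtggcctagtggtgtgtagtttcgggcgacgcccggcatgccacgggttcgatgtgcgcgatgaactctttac
H09I01.2 (chrIV:8252994-8253113, plus strand): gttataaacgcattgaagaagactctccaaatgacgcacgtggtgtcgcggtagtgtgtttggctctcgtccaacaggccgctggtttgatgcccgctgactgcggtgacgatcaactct
C51F7.3 (chrV:12303608-12303727, plus strand): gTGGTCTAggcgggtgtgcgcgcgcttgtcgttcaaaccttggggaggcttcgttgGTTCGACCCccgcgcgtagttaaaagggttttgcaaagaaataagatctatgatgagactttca
ZK994.7 (chrV:8500479-8500598, plus strand): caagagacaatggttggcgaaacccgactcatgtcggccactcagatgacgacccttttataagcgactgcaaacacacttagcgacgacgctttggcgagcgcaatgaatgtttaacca
Y43F8C.22 (chrV:19643168-19643287, minus strand): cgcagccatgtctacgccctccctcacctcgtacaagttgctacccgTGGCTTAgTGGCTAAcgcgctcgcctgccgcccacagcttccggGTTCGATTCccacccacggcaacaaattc
T03F7.8 (chrV:11314158-11314277, plus strand): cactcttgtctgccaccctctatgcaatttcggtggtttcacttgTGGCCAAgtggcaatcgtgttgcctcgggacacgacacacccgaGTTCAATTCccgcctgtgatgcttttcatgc
C04G6.12 (chrII:5105212-5105331, minus strand): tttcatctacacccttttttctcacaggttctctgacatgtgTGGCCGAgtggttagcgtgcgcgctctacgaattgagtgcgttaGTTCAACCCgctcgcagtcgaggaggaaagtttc
B0334.12 (chrII:11484583-11484702, plus strand): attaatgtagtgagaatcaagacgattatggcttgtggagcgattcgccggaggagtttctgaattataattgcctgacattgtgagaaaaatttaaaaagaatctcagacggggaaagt
R166.7 (chrII:10545310-10545429, minus strand): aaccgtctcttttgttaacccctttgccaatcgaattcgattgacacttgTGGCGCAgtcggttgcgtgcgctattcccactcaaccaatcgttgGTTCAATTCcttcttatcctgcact
Y59E1B.14 (chrX:1891409-1891528, plus strand): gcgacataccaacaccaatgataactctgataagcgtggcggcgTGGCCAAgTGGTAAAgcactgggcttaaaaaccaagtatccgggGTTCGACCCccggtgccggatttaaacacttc
In W03C9.9, C51F7.3, Y43F8C.22, T03F7.8, C04G6.12 and Y59E1B.14 the marked letters lie entirely upstream of the named RNA. In R166.7 the B box form crosses the 5' end. T06C12.16 holds GTTCGA, the core of the B box, without the full form. H09I01.2, ZK994.7 and B0334.12 hold no such pair.

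A minority of snoRNA genes carried strong regions, and those that did were among the strongest of the whole data set. Each list of regions gives a signal value, the strength that the peak caller assigned, on a scale of its own in every list. In the thresholded list, which holds the 668 strongest of 30000 regions of the pooled libraries (minimum signal 130, median 177), 56 snoRNA genes had a peak. That is 16.2% (Wilson 95% interval 12.7 to 20.4, counting error over genes only), where 2.09% of all annotated genes had one. Among the 668 strongest regions of each replicate's own list, 55 snoRNA genes had a region in replicate 1 and 54 in replicate 2, beside 2.08% and 2.00% of all genes. The share was 32.2% of 612 tRNA genes, 6.20% of 129 snRNA genes, 1.92% of 261 microRNA genes and 2.11% of 19973 protein-coding genes. The 56 genes lay at 55 regions, because C51F7.3 and C51F7.4 share the strongest region of all. Their pooled signal ran from 135 to 1365 with a median of 371, and 30 of the genes stood at regions ranked 100 or better. With any listed region, weak ones included, 139 snoRNA genes had one in the pooled list (40.2%, interval 35.1 to 45.4), beside 29.2% of all genes. That share was below the 47.3% of protein-coding genes and the 62.9% of tRNA genes. The search covered the whole gene and 200 bp on each side, so longer genes had a wider window, and the protein-coding share is not like for like. From 500 bp before to 100 bp after an annotated 5' end, 25.4% of protein-coding genes had any region. The corresponding counts were 148 in replicate 1 and 144 in replicate 2, beside 30.2% and 29.7%. So 83 genes had only a weaker region and 207 had none. With 1 group and 2 libraries there is no test over samples, and no read counts are given, so the depth behind each signal value is unknown.

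Whether a snoRNA gene inside a protein-coding gene's intron differed from one outside was the next comparison. An intronic gene here lies wholly inside an intron of a protein-coding transcript. Of the 346 genes, 145 lay in introns on the host's strand, 27 in introns on the opposite strand and 174 outside introns. A thresholded peak was found at 21 same-strand genes (14.5%, interval 9.67 to 21.1), 8 opposite-strand genes (29.6%, 15.9 to 48.5) and 27 genes outside (15.5%, 10.9 to 21.6). The same-strand share was lower than the outside share by 1.03 percentage points, with a Newcombe 95% interval of -8.82 to 7.06. Opposite-strand genes stood 14.1 points above those outside, and the interval of -0.962 to 33.5 included 0. In the replicates that difference was 14.7 points (-0.360 to 34.1) and 15.3 points (0.243 to 34.6), so the interval left out 0 in replicate 2 alone. Both intron classes together had 16.9%, a difference from outside of 1.34 points (-6.47 to 9.16). Of the genes outside introns, 6 of 50 that overlapped an exon and 21 of 124 that did not had a thresholded peak. The median pooled signal of the thresholded genes was 333 in same-strand introns, 481 in opposite-strand introns and 371 outside.

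**Figure D1:**
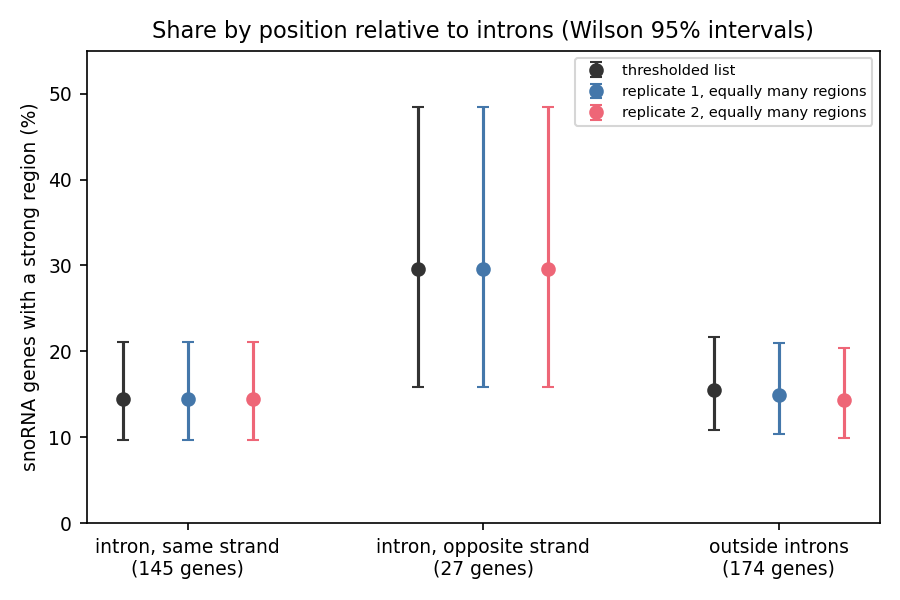
Share of snoRNA genes, in percent, with a strong region by location, in the thresholded list and among equally many of the strongest regions of each replicate; points are shares and bars are Wilson 95% intervals. The same-strand and outside shares lie close to 15%, and the opposite-strand share of 29.6% rests on 27 genes.

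The 10 strongest genes outside introns ranked 77 or better in both replicates. The region shared by C51F7.4 and C51F7.3 (V, 12303442 to 12303826) had a signal of 808 in replicate 1 and 555 in replicate 2, ranks 1 and 2. C51F7.4 overlaps an exon of frm-7, a FERM domain gene, and C51F7.3 lies in an intron of it on the same strand. W03C9.9 (II, 11960898 to 11960959, plus strand, 62 bases) had signals of 688 and 594, ranks 2 and 1, and both replicate summits were within 1 bp of each other. T06C12.16 (V, 72 bases) had 594 and 420, ranks 4 and 6. Its gene overlaps no exon. H09I01.2 (IV, 72 bases) had 336 and 220, ranks 22 and 42, and its summit was 6967 bp from the nearest protein-coding 5' end. The other genes outside introns among the 10 strongest were ZK265.10, T02E1.9, F32E10.10, T19B4.8, C41C4.11 and C46C2.8, with pooled signals from 453 to 1050. Their ranks were furthest apart, as a ratio, at C41C4.11 (73 and 32), and C46C2.8 ranked 41 and 77.

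In same-strand introns, ZK994.7 (V, 8500579 to 8500645) lay in pxn-1, a peroxidasin gene, and had signals of 586 and 465, ranks 5 and 3, with the summit at the same base in both replicates. The summit was 5660 bp from the nearest 5' end of its host. D1046.6 in cfim-2, which encodes a subunit of an mRNA cleavage factor, ranked 16 in both, with its summit 268 bp from its host's 5' end. M106.6 in mix-1, a condensin gene, ranked 69 and 107 and had its summit 16016 bp from its host's nearest 5' end and 3365 bp from that of any protein-coding gene. Over the 21 thresholded same-strand genes, the summit was a median of 1342 bp from the host's nearest annotated 5' end (range 74 to 16016), and 17 were more than 500 bp away. Counting every protein-coding 5' end, 16 were, since F38E11.14 had its summit 305 bp from one of another gene. The 4 within 500 bp of a host's 5' end were F55A11.10 (74 bp), Y71F9AM.7 (210 bp), D1046.6 and Y37E3.20 (342 bp), and a region at the host's own start cannot be told apart there. The remaining same-strand genes among the 10 strongest were Y43F8C.22, C10C6.8, F38E11.14, C27H6.5 and C05D2.15. Their hosts include catp-8 and the cyclic nucleotide-gated channel gene cng-3. Another host is unc-41, which acts in synaptic vesicle recycling. Pooled signals of these remaining snoRNA genes ran from 427 to 669.

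In opposite-strand introns, T03F7.8 (V, 11314258 to 11314332) lay in cutl-18, a cuticlin-like gene, and had signals of 509 and 438, ranks 6 and 5. C04G6.12 (II, 5105157 to 5105231) lay in mpk-2, a MAP kinase gene, and ranked 10 and 26. B0334.12 (II, 70 bases), in the potassium channel gene twk-5, ranked 18 and 25. ZK484.9 in the transporter gene haf-9 and C27H5.9 in pdl-1 had pooled signals of 490 and 473. None of these 5 had a rank past 65 in either replicate. The 8 thresholded genes of this class had their summits a median of 834 bp from the host's 5' end (320 to 3700), and 6 were more than 500 bp away.

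The summits of the strong regions lay in a narrow position just upstream of the RNA. For the 56 genes with a thresholded peak, the median summit was 43 bp upstream of the 5' end (quartiles 53.25 and 25.25 bp upstream, range 125 bp upstream to 120 bp downstream). In 50 genes the summit was upstream (89.3%, interval 78.5 to 95), in 5 inside the gene and in 1 past its 3' end. A band from 20 to 85 bp upstream held 47 summits (83.9%), and that band, whose edges were set after the data were seen, makes up 13.1% of the searched window. The medians were 42 bp upstream in replicate 1 (46 of 55 upstream) and 42.5 bp in replicate 2 (49 of 54). By location the medians were 49 bp upstream in same-strand introns, 41.5 bp in opposite-strand introns and 42 bp outside. At the 83 genes with a weaker region, summits were spread more widely over the window, with a median of 10 bp upstream. Of these summits, 44 were upstream (53.0%, where the upstream part is 37.4% of the window). The band held 17 (20.5%, where it makes up 12.3% of the window). At the 197 tRNA genes with a thresholded peak the median summit was 14 bp downstream of the 5' end, and 129 of the summits lay inside the gene.

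**Figure D2:**
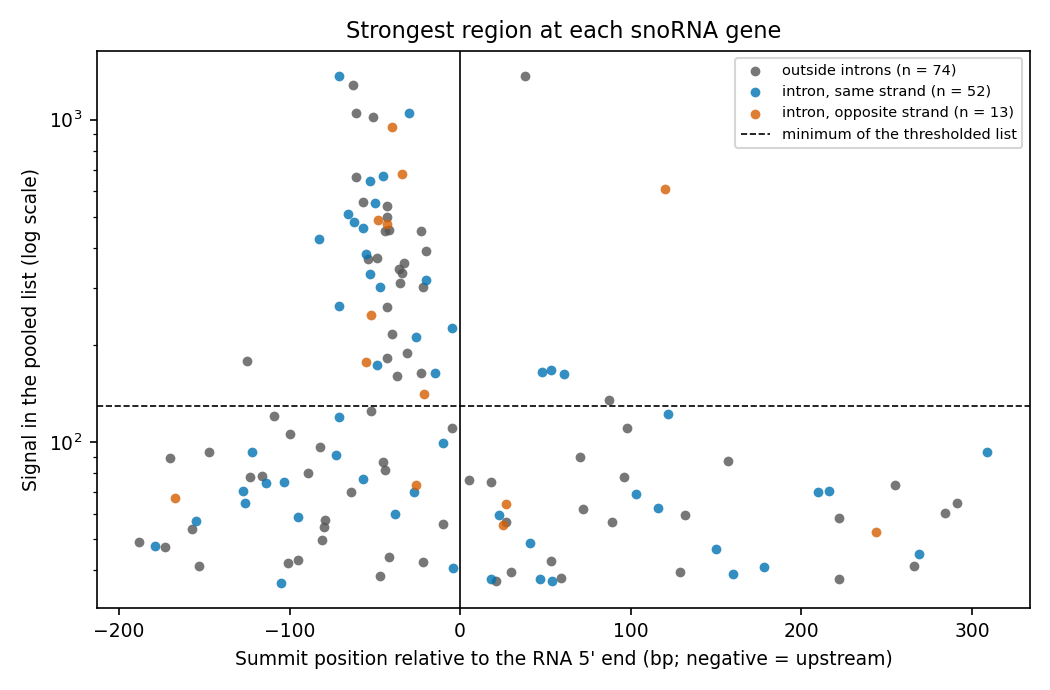
Summit position relative to the RNA 5' end in bp (x) against signal in the pooled list (y, log scale) for the 139 snoRNA genes with a region; colours give location and the dashed line the minimum of the thresholded list. Above the line most points stand between 20 and 85 bp upstream, and below it they spread more widely over the window.

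The exceptions to the upstream position differed between replicates in 4 of 6 cases. B0334.12 had its summit 147 bp downstream of the 5' end in replicate 1 and 120 bp in replicate 2, past the end of a 70-base gene. C51F7.4, whose neighbour C51F7.3 has the summit upstream of it, had summits 31 and 40 bp inside the gene. At F11A10.9, Y71F9AM.7, R12E2.17 and F25H2.15 the summit was downstream of the 5' end in replicate 1 and upstream in replicate 2, for example 54 bp downstream and 61 bp upstream at F11A10.9.

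At most strong regions the replicate summits lay within 30 bp of each other. Of the 56 genes, all had a region in replicate 1 and 55 in replicate 2, and 51 stood among the 668 strongest in both. The thresholded regions were picked from the same libraries pooled, so these counts are partly set by that choice. The median distance between the replicate summits was 9 bp (quartiles 5 and 27, largest 148), and 43 of the 55 pairs were upstream in both. Of the 55 pairs, 29 were within 10 bp and 42 within 30 bp. W01C9.6 on II was the gene with no region in replicate 2. For the weaker genes, 40 of 83 had a region in both, with a median distance of 27.5 bp and a largest of 513 bp. Among thresholded genes, the ratio of the replicate ranks was largest at ZK546.18 (1237 in replicate 1, 236 in replicate 2), F39B2.14 (228 and 955) and C04G6.12 (10 and 26).

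**Figure D3:**
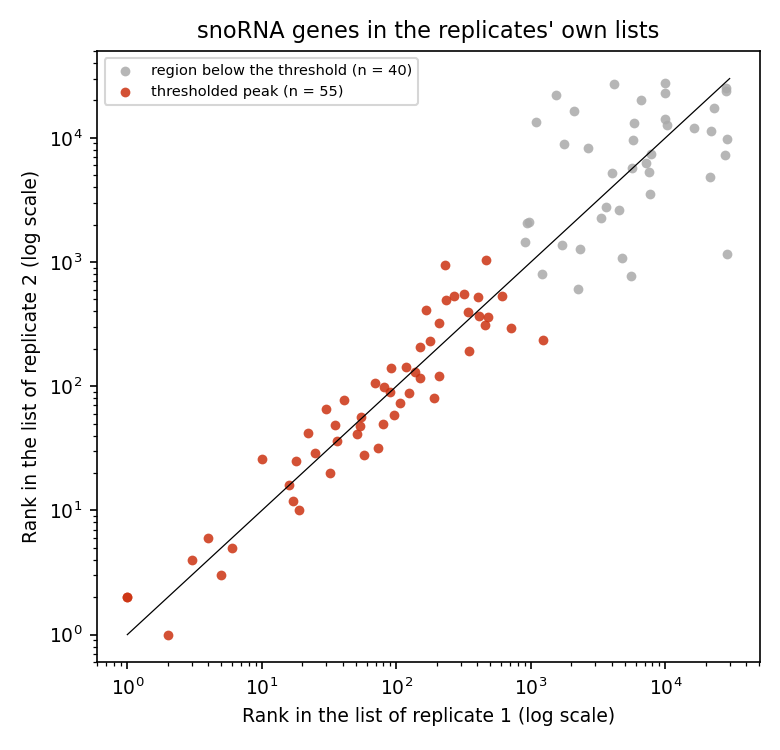
Rank of each snoRNA gene's strongest region in the list of replicate 1 (x) and replicate 2 (y), log scales, for genes with a region in both; the line marks equal rank. The 55 thresholded genes follow the line, and the 40 weaker genes scatter around it.

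Letters of the tRNA type stood upstream of many of the strong genes. The pair of forms counted here was not among the letters planned beforehand, and was chosen with earlier results of these data known. In the 300 bases from 250 before to 50 after the 5' end, an A box form followed by a B box form on the RNA's strand was present at 24 of the 56 genes with a thresholded peak (42.9%, interval 30.8 to 55.9). It was present at 2 of the 83 genes with a weaker region, 1 of the 207 with none and 356 of 46884 annotated 5' ends (0.759%). The A box form alone was common everywhere, at 89.3% of thresholded, 65.1% of weaker and 64.7% of region-free genes, and 58.8% of all 5' ends. For the B box form alone the shares were 48.2%, 10.8%, 7.25% and 5.12%. The pair occurred inside 452 of 612 tRNA genes (73.9%), its known place. Of the 139 snoRNA genes with a region in the pooled list, 0 had that summit within 200 bp of an annotated tRNA, snRNA or microRNA gene. On the other strand 0 of the 56 genes had the pair (Wilson upper limit 6.42%), as did 2 of the 83 weaker genes and 0 of the 207 with none. Over all annotated 5' ends the other-strand share was 0.864% (405 of 46884), so the count of 0 is near that share. Read the other way, 24 of the 27 snoRNA genes with the letters had a thresholded peak (88.9%, interval 71.9 to 96.1), and 32 of the 319 without did (10.03%, interval 7.20 to 13.8). By location the letters stood at 9 of 21 in same-strand introns, 4 of 8 in opposite-strand introns and 11 of 27 outside. At C51F7.4 the letters lie inside its own RNA. Its A box form is the one counted for C51F7.3, but the B box forms counted differ. That of C51F7.4 starts 39 bp downstream of its 5' end, and that of C51F7.3 starts 44 bp upstream of its own. A match of letters is not a binding site, and near forms such as that of T06C12.16 are missed.

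**Figure D4:**
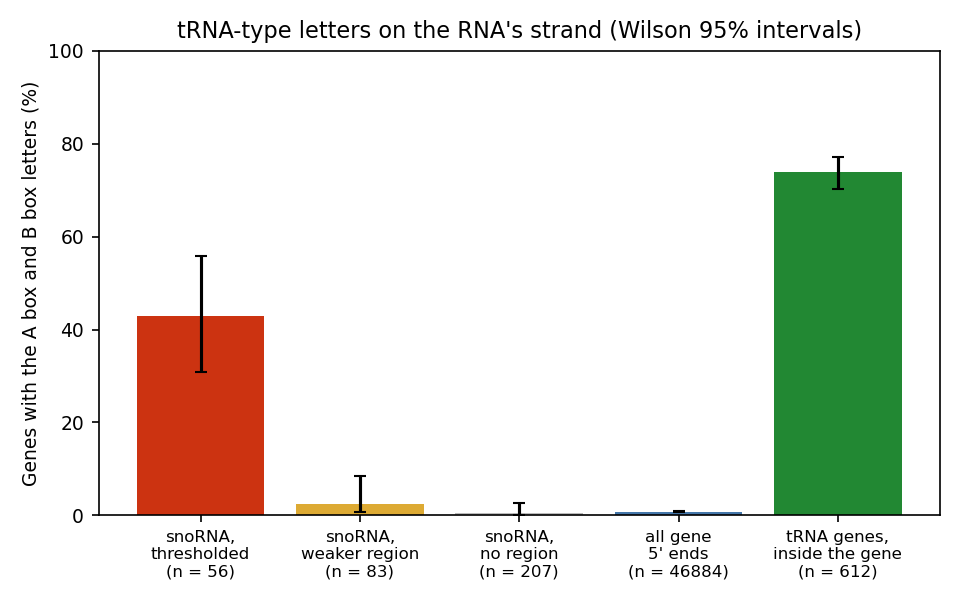
Share of genes, in percent, with the A box and B box letters on the RNA's strand; bars start at 0 and lines are Wilson 95% intervals. The letters were found at 42.9% of thresholded snoRNA genes, 0.759% of all gene 5' ends and inside 73.9% of tRNA genes.

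The letters stood close to the 5' end in most of these genes. Over the 24 genes the A box form began a median of 56 bp and the B box form 14 bp upstream of the 5' end, with starts 44 bases apart, as in the tRNA genes with a thresholded peak and the letters (also 44, n = 147). Where several B box forms fitted, as at C51F7.3, the one furthest downstream was used. Where several A box forms preceded that B box form, the nearest was used. The positions and the spacing depend on these choices. The summit lay between the starts of the 2 forms in 20 of 24 genes. Measured from the start of the A box form, the median summit was 13.5 bp further on (quartiles 3.75 and 19.75) in snoRNA genes and 1 bp before it in tRNA genes (quartiles 25 before and 26 after). T03F7.8 had the form 55 bp upstream and its summit 40 bp upstream. The 32 thresholded genes without the letters also had their summits upstream, at a median of 36.5 bp with 27 of 32 upstream.

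**Figure D5:**
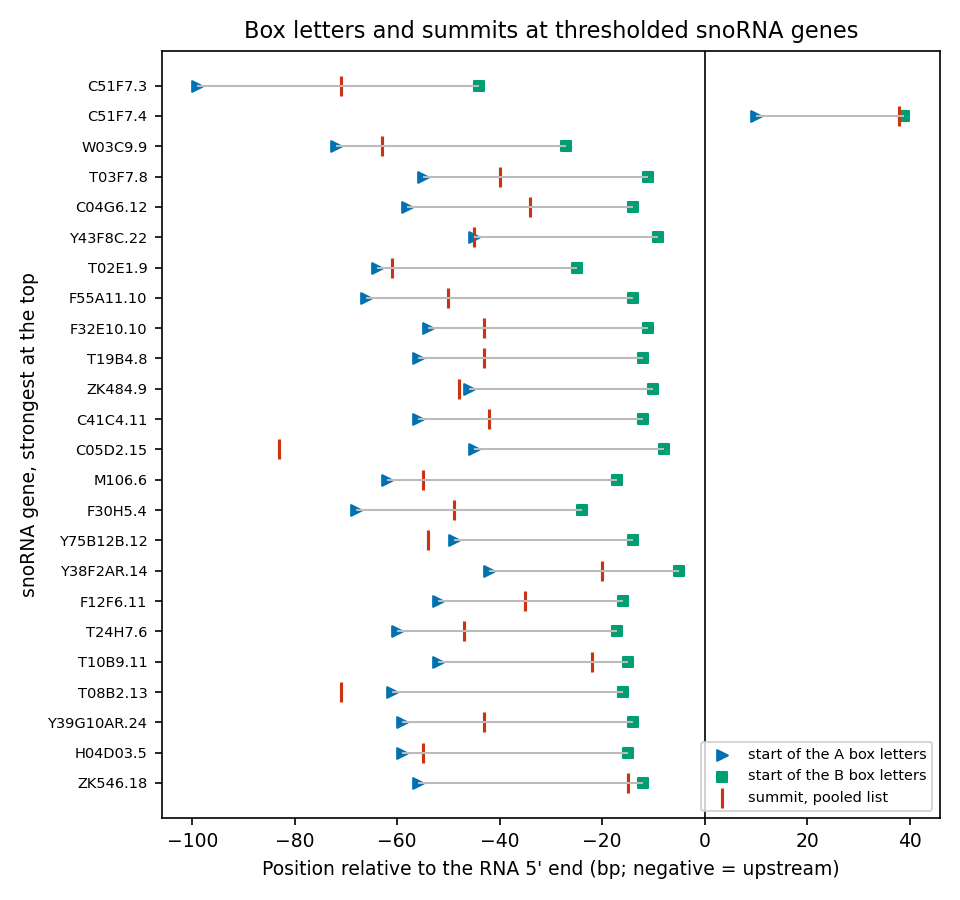
Starts of the A box and B box letters and the pooled summit, in bp from the RNA 5' end, for the 24 thresholded snoRNA genes that hold the letters, ordered by rank. In 20 genes the summit lies between the 2 starts.

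Of the 3 genes with the letters and no thresholded peak, R166.7 on II ranked 4564 in the pooled list and 3454 in replicate 1. It had no region in replicate 2. Y59E1B.14 on X ranked 20966 in the pooled list, 28034 in replicate 1 and 23858 in replicate 2. Y6B3B.15 had no region in the pooled list. Other letters on either strand gave smaller contrasts. GTTCGA, which overlaps the B box form, stood at 39.3% of thresholded, 13.3% of weaker and 10.1% of region-free snoRNA genes, and at 10.3% of all 5' ends. CGCACA stood at 30.4%, 10.8% and 8.21%, and at 6.03% of all. The SOX form NNCAANG, with each N an A or a T, was found at 30.4% of thresholded genes, 22.9% of weaker ones, 38.6% of those with none and 43.8% of all 5' ends. TATAAA was at 28.6%, 26.5%, 23.2% and 37.4%, GATAAG at 7.14%, 10.8%, 12.1% and 13.1%, and GGGCGG at 14.3%, 13.3%, 6.76% and 5.78%. Base composition moved with these groups: the 100 bases upstream had a mean GC content of 55.04% at thresholded genes, 45.3% at weaker ones, 40.8% at those with none and 32.1% over all 5' ends. Its part in the letter shares was not tested.

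Strong regions were found more often at short snoRNA genes. Of the 95 genes of up to 100 bases, 29 had a thresholded peak (30.5%), of the 158 genes of 101 to 160 bases 23 had one (14.6%), and of the 93 longer genes 4 had one (4.30%). The difference between the shortest and the longest group was 26.2 percentage points (interval 15.8 to 36.4), and the counts were 30, 22 and 3 in replicate 1 and 30, 22 and 2 in replicate 2. The number in a gene's Ensembl identifier gave a larger split: 51 of 139 genes numbered below 100000 (36.7%, interval 29.1 to 45.0) and 5 of 207 numbered from there up (2.42%, 1.04 to 5.53) had a thresholded peak. The latter 5 were C51F7.4, C05D2.15, F39B2.14, ZK20.9 and W06H8.17. The lower-numbered genes were also shorter, with a median of 117 bases against 140. Both splits were chosen after the data were seen, and the share each takes in the other was not tested. The letter rule for box class put 14 genes with box C/D, 91 with box H/ACA and 241 in neither. Box C/D here means TGATGA in the first 20 bases and CTGA in the last 20. Box H/ACA means ACA in the last 8 bases without that pair. These are matches of short letters, not annotated classes. Thresholded peaks were found at 5 (35.7%), 19 (20.9%) and 32 (13.3%) of them, beside 2.09% of all annotated genes.

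No snoRNA gene of the X chromosome had a thresholded peak. Of 33 such genes, 0 had one (Wilson upper limit 10.4%, or 9.09% by the limit of 3 counts that a count of 0 allows), beside 56 of 313 autosomal genes (17.9%, interval 14.0 to 22.5). It was also 0 of 33 among the strongest regions of each replicate. Regions of any strength were present at 11 of the 33 X genes (33.3%) and 128 autosomal genes (40.9%). The X genes had a median length of 142 bases and the autosomal ones of 129, and 1 X gene held the A and B box letters. Of the 33 X genes, 30 had identifier numbers from 100000 up, and among autosomal genes 5 of 177 so numbered (2.82%) and 51 of 136 lower-numbered ones (37.5%) had a thresholded peak. With 3 lower-numbered genes on X, the chromosome and the identifier number cannot be told apart here.

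The genes for the proteins that work with snoRNAs, and for factors that transcribe small RNA genes, were then read for regions from 500 bp before to 100 bp after an annotated 5' end. In the pooled list 7 of the 11 listed genes had a region of any strength, beside 25.4% of 19865 protein-coding gene symbols, and 1 had a thresholded peak, beside 1.67%. In replicate 1 the counts were 5 and 0 (25.9% and 1.65% of all), and in replicate 2 they were 6 and 1 (24.8% and 1.63%). The gene with the peak was fib-1, which encodes fibrillarin, the methyltransferase of box C/D particles. Its region (V, 15002128 to 15002543), with the summit 113 bp upstream, had a signal of 141 in the pooled list, and ranked 1104 in replicate 1 and 515 in replicate 2. The nola-3 gene, for a small core protein of box H/ACA particles, ranked 1069 in the pooled list and Y48A6B.3 ranked 2030. The remaining regions were weak: dkc-1, for dyskerin, ranked 10836, snu-13, for a box C/D core protein, 14686, nol-58, for another, 21169, and tbp-1, for the TATA-binding protein, 29778. No region of the pooled list was found at nol-56, garr-1, snpc-4 or brf-1.

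The limit of 200 bp was checked by the genes at its edge. C24A1.8 (summit 197 bp from the gene, pooled rank 2006) and Y65B4A.11 (188 bp, rank 16509) were just inside it. Y17G7B.25 and Y71G10AR.5 had their nearest regions 204 bp away, at ranks 1149 and 8563, and were counted as having none. No thresholded gene was at either edge. Of all 346 genes, 3 had more than 1 exact copy in the genome, and none of these 3 had a thresholded peak.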

How the data were processed

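ChIP-seq of SOX-4-eGFP embryos, in 2 replicates, was deposited as lists of regions. Per the descriptions deposited with the files, regions were called on each replicate and on the pooled libraries against a control alignment, and a list was thresholded by the irreproducible discovery rate. The signal value of each region (column 7) is as the authors deposited it and was not scaled between lists, so it ranks regions within a list only. The sources used here name no aligner or peak caller. Only the ce11 lists were used, since the gene models are of that build. The 668 thresholded regions were the strongest of the pooled list, so "strongest" in a replicate means its first 668. The lists give no read counts, so depth is unknown.

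Gene models were those of Ensembl release 115. Shares carry Wilson 95% intervals and differences Newcombe intervals, which cover counting error over genes, not samples. No p-values were computed. Promoter windows ran from 250 bases before to 50 after the 5' end. The procedures were tested on simulated data. Of the 11 snoRNP and transcription genes, 3 sequence names were matched to symbols through the RefSeq gene table. Tools were scipy 1.17.1, pandas 2.3.3 and numpy 2.4.6 under Python 3.11.15, with matplotlib 3.10.9 for plots.

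The members, gene lists and letters were chosen with earlier results of these data known. Genes named were the 10 strongest outside introns, the 10 in same-strand introns, the 5 in opposite-strand introns, the 3 thresholded genes with the largest rank ratio between replicates, up to 2 on each side of the distance limit, and all genes of the snoRNP list. Other genes were named after their values were seen. Alternatives tried were other distances, summit rules, lists and letters, and leaving out a replicate.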

Additional observations from a re-analysis of the deposited data

How the results depend on the processing

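Of 58 alternatives, 48 moved the results by no more than the counting error or, for counts, 1.5 times, and no single value changed sign. Among those 48 were the alternatives that left out genes sharing a region with a tRNA, snRNA or microRNA gene. There were 0 such genes, so these alternatives could not move any value. The order of the location classes did change: same-strand against outside was 14.5% against 15.5%, and 14.5% against 14.4% without replicate 1. The distance rule mattered most. With the summit inside the gene, 32 snoRNA genes had any region and 5 a thresholded peak, and the shares were 2.07% in same-strand introns, 0% in opposite-strand introns and 1.15% outside, so the opposite-strand class went from highest to lowest. Most summits lie upstream, so that rule drops most of them. The median summit position was -42.5 and -42 bp without replicate 1 and without replicate 2, and -43.5 bp in the stronger 334 regions of the thresholded list, where 95.7% of summits were upstream. Each of these medians was counted among the 10 alternatives that moved, though all are close to the main median of -43 bp. Neither the pair of A and B box letters nor its alternatives were planned beforehand. With a further G in the A box letters (TGGNNNAG), an alternative chosen after the data were seen, 30.4% of thresholded genes and 0.252% of all 5' ends held the pair. With GNTCNANNC as the B box it was 51.8% and 1.84%, and with GTTCGA 32.1% and 0.853%. No paired analysis was possible because there is 1 group. Intervals cover counting error over genes, and 2 libraries with no read counts limit all values.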
